A study of Mus musculus with 6 samples.

Results

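The CCN genes and the YAP pathway genes examined here are Ccn1 (listed on older arrays as Cyr61), Ccn2 (Ctgf), Ccn3 (Nov), Ccn4 (Wisp1), Ccn5 (Wisp2), Yap1, Wwtr1, Ankrd1 and Amotl2. They were chosen by name, as every probe set annotated to one of these genes alone, which gave 18 probe sets for 9 genes out of 45037 probe sets and 18193 genes on the array. The cells were As4.1, a mouse line from a kidney tumour of a mouse that carried a viral T antigen under a renin promoter, used as a model of renin-producing cells. Cultures received interleukin (the labels do not say which), hydrogen peroxide, a reactive oxygen species, or vehicle, with 2 separate cultures in each of these 3 groups and 1 Affymetrix mouse array per culture. No dose or time is given in the labels, and all 6 arrays come from this one transformed line.

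CCN proteins are secreted into the extracellular matrix, where they bind integrins, heparan sulfate proteoglycans and growth factors and so alter adhesion, migration and matrix production. YAP, encoded by Yap1, and TAZ, encoded by Wwtr1, are transcriptional coactivators. Kinases of the Hippo pathway phosphorylate them and keep them out of the nucleus, and in the nucleus they act through the DNA-binding TEAD proteins. Ccn1, Ccn2, Ankrd1 and Amotl2 are widely used as readouts of YAP and TAZ activity in cultured cells. In kidney, Ccn2 is best known for its part in fibrosis.

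Values are MAS5 signals on a linear scale, scaled to a common target: with the top and bottom 2% of probe sets removed, each array averaged 1500. The median signal of an array was 192.2 to 232.3, and arrays of one group correlated at 0.9808 to 0.9871 over the probe sets tested, against 0.9535 to 0.9753 between groups. Beta-actin 3'/5' ratios, a measure of RNA integrity and labelling, were 1.456 and 1.554 with interleukin, 1.348 and 1.316 with hydrogen peroxide, and 1.224 and 1.261 with vehicle. Those of the transferrin receptor control differed more, at 3.051 and 3.95, 3.538 and 2.296, and 1.849 and 2.14 in the same order, as did those of pyruvate carboxylase, at 2.304 and 2.462, 2.887 and 2.029, and 1.655 and 1.593, while those of Gapdh were 0.8251 to 0.8725 on all arrays. Of 12 markers of the renin lineage, smooth muscle and pericytes, 11 were on the array and 7 were bright enough to be tested, among them Pdgfrb, Acta2, Foxd1 and Tbx18, while Myh11 lay under 193.7, the lowest mean signal tested, on every array. The signal summed over all listed genes on the array, by the brightest probe set of each, was 31498 to 38206 with interleukin, 23370 to 24318 with hydrogen peroxide and 23524 to 24389 with vehicle. Brighter genes weigh more in such a sum, and its members did not move together: Acta2 had 15280.4 and 9721.5 with interleukin, 9378.7 and 9493.1 with hydrogen peroxide and 6147.1 and 6112.6 with vehicle, whereas Foxd1 had 1372.5 and 1458.5, 1000.5 and 1184.9, and 2313.4 and 1992.1. Kcnj8 was lowest with hydrogen peroxide, at 849.6 and 671.8, against 2405.1 and 2326.6 with vehicle. Of 6 leukocyte and macrophage markers 3 were tested, with sums of 2058.4 to 2352, 1808.6 to 1908.9 and 1373.6 to 1390.4 in the same order. Most of that difference lay in Cd68, at 1201.8 and 707.6, 801.4 and 796.4, and 354.2 and 423.3, and Ptprc and Itgam lay under 193.7 on every array. Endothelial markers were tested for 1 of 6, namely Kdr, with sums of 8474.6 to 11920, 10857 to 11689 and 13535 to 15961, and Pecam1, Tie1 and Emcn lay under 193.7 throughout. Epithelial and tubule markers were tested for 2 of 10, with sums of 1243.7 to 1401.4, 1040.2 to 1258.3 and 1505.8 to 1610.5, and Cdh1, Krt18, Umod, Slc12a3 and Cdh16 lay under 193.7 throughout. The 3'/5' ratios and the marker sums differed between the groups, and their part in the results below was not tested.

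The 2 treatments gave different patterns among the CCN genes. With interleukin Ccn2 rose most, Ccn4, Ccn5 and the 2 brighter probe sets of Ccn1 rose by less, and Ccn3 did not pass the test. With hydrogen peroxide Ccn3 fell, Ccn4 and one probe set of Ccn1 rose, and Ccn2 and Ccn5 did not pass the test. Between the treatments Ccn2, Ccn3 and Ccn5 passed, and Ccn1 and Ccn4 did not. Differences are log2 changes from limma over all 22519 tested probe sets, with Benjamini-Hochberg adjustment and a threshold of 0.05. Of the 16 member probe sets bright enough to be tested, 8 were higher and 1 was lower with interleukin than with vehicle, against 7.58% higher and 8.52% lower among all probe sets tested. With hydrogen peroxide 3 of the 16 were higher and 2 lower than with vehicle, against 3.05% and 2.65%. Between the treatments 4 of 16 were higher with interleukin than with hydrogen peroxide, against 4.95%, and 0 were lower, against 3.87%. Of the 16, 5 had an unadjusted p under 0.05 in limma, again 0 of them lower, against 5357 of all 22519. Several of these probe sets share a gene and are not independent of each other. The members were chosen with earlier results of these data known, so the shares beside them are no test of enrichment. Both comparisons with vehicle use the same vehicle arrays. In RNA from whole cultures, fewer cells that express a gene and less of its RNA per cell cannot be told apart.

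**Figure D1:**
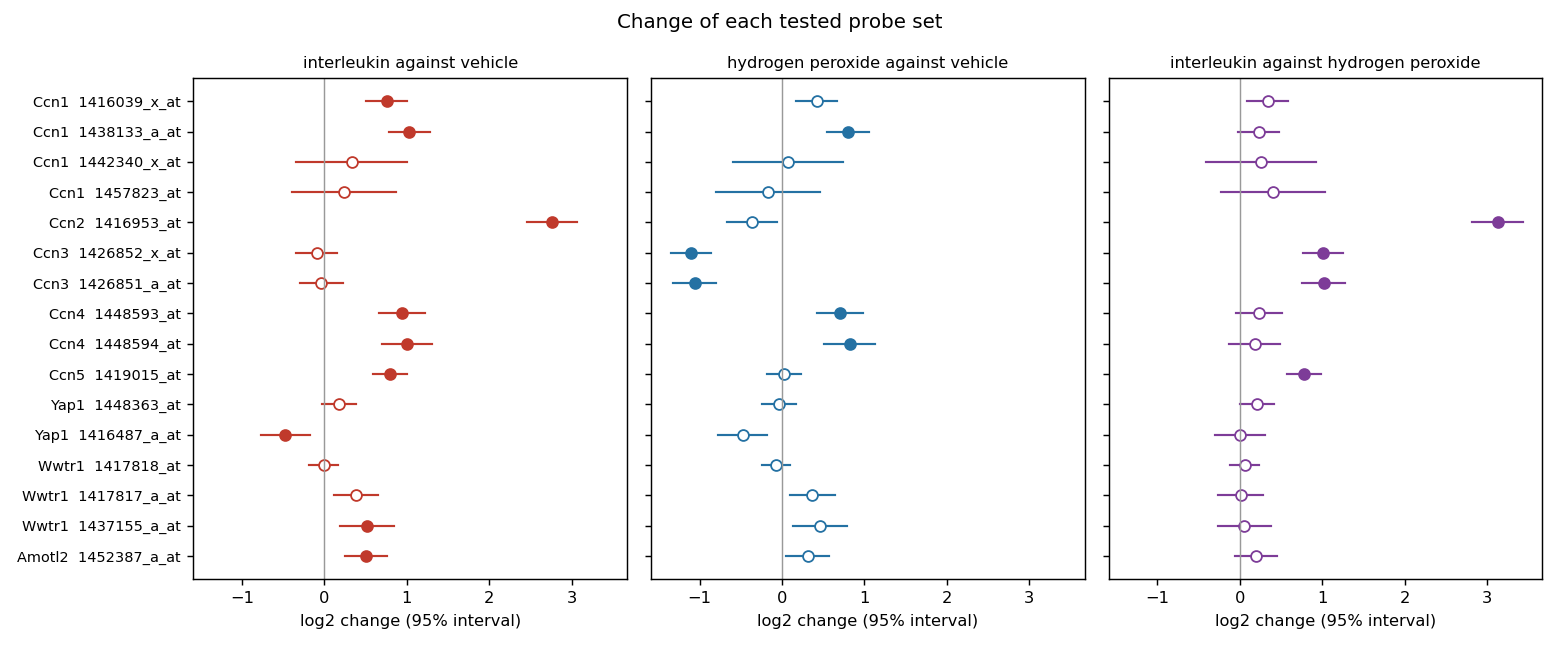
Log2 change of each of the 16 tested probe sets (rows, named by gene and probe set) in the 3 comparisons, with 95% intervals from limma. Filled points had an adjusted p under 0.05; the Ccn2 point lies far to the right in both comparisons that hold interleukin, at 2.76 and 3.13, and the Ccn3 points lie to the left with hydrogen peroxide, at -1.10 and -1.06.

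Ccn2 encodes a matricellular growth factor that acts with TGF-beta in matrix production. Its probe set (1416953_at) had signals of 9764.8 and 9031.6 with interleukin, 1145.7 and 1006.8 with hydrogen peroxide and 1494.5 and 1282.9 with vehicle. Both interleukin arrays stood far above the other 4, and the hydrogen peroxide arrays lay below the vehicle arrays without overlap. The log2 change with interleukin was 2.76 ± 0.14 (SE, n = 2 per group, limma adjusted p = 8.82e-07), a fold of 6.78, and 38 of the 10892 genes tested by their brightest probe set rose more. With hydrogen peroxide the log2 change was -0.37, with a 95% interval of -0.67 to -0.06 and a limma adjusted p of 0.149. The difference between the treatments was 3.13 (limma adjusted p = 6.97e-07), or 8.74-fold, and 16 genes had a larger one.

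Ccn1 encodes a matricellular protein known as an immediate-early gene product that promotes adhesion and, in fibroblasts, senescence. Its brightest probe set (1416039_x_at) had signals of 14596.7 and 12587.6 with interleukin, 10499.0 and 10947.4 with hydrogen peroxide and 8739.2 and 7347.3 with vehicle. The 3 groups did not overlap, with interleukin highest and vehicle lowest. A further probe set (1438133_a_at) ran in the same order, at 11648.2 and 10158.8, 8520.5 and 10082.1, and 5354.4 and 5296.0. With interleukin these probe sets rose by 0.76 ± 0.11 and 1.03 ± 0.11 (log2, SE, n = 2 per group, limma adjusted p = 0.00143 and 0.000224). With hydrogen peroxide the second rose by 0.80 (limma adjusted p = 0.00398), while the brightest differed by 0.42 and did not pass (limma adjusted p = 0.0561). It passed under 6 of 15 alternative settings, with limma adjusted p of 0.0295 to 0.0498, among them quantile normalization and the use of 1 probe set per gene. Interleukin against hydrogen peroxide gave 0.34 and 0.23 with 95% intervals of 0.09 to 0.59 and -0.02 to 0.48, and neither passed (limma adjusted p = 0.0938 and 0.250).

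Another pair of Ccn1 probe sets (1442340_x_at and 1457823_at), dimmer than these, passed in no comparison. Their signals on the 2 hydrogen peroxide arrays were far apart, at 1170.0 and 2679.1 for 1442340_x_at and at 1014.7 and 2113.8 for 1457823_at. For interleukin against vehicle they differed by 0.33 and 0.24, with 95% intervals of -0.34 to 1.0 and -0.39 to 0.87. Without hydrogen peroxide array 2 both passed for interleukin against hydrogen peroxide, at 0.86 and 0.94 (limma adjusted p = 0.0491 and 0.0424), and without array 1 they were at -0.34 and -0.12.

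Ccn3 encodes a CCN protein that opposes Ccn2 in several settings and is known from nephroblastoma. Its brighter probe set (1426852_x_at) had signals of 11337.8 and 10313.7 with interleukin, 5783.6 and 4989.5 with hydrogen peroxide and 12234.5 and 10901.1 with vehicle. The hydrogen peroxide arrays stood alone below the others, and the interleukin and vehicle arrays overlapped. With hydrogen peroxide the 2 probe sets fell by 1.10 ± 0.11 and 1.06 ± 0.12 (log2, SE, n = 2 per group, limma adjusted p = 0.000786 and 0.00128), to 0.465 and 0.480 of vehicle, and by its brightest probe set 38 of 10892 genes fell more. With interleukin the differences were -0.09 and -0.04, with 95% intervals of -0.34 to 0.15 and -0.30 to 0.22 (limma adjusted p = 0.613 and 0.856). The difference between the treatments passed for both, at 1.01 and 1.02 (limma adjusted p = 0.000284 and 0.000399).

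Ccn4 encodes a CCN protein induced by Wnt signalling. Its probe sets gave 2682.2 and 2699.5 (1448593_at) and 2709.8 and 2299.6 (1448594_at) with interleukin, 2284.4 and 2306.3 and 2216.6 and 2179.1 with hydrogen peroxide, and 1411.8 and 1396.4 and 1260.6 and 1228.3 with vehicle. Every array of either treatment stood above both vehicle arrays on both probe sets. The log2 changes were 0.94 ± 0.13 and 1.0 ± 0.14 with interleukin (SE, n = 2 per group, limma adjusted p = 0.000756 and 0.000918) and 0.71 ± 0.13 and 0.82 ± 0.14 with hydrogen peroxide (limma adjusted p = 0.0110 and 0.00893). The treatments differed by 0.23 and 0.18, with 95% intervals of -0.05 to 0.51 and -0.12 to 0.49, and neither passed (limma adjusted p = 0.304 and 0.472). The hydrogen peroxide call of 1448593_at was lost without any one of the 4 arrays compared (limma adjusted p = 0.0674, 0.055, 0.0841 and 0.0925 without hydrogen peroxide arrays 1 and 2 and vehicle arrays 1 and 2). That of 1448594_at was lost without hydrogen peroxide array 1 (limma adjusted p = 0.0604), vehicle array 1 (0.0700) or vehicle array 2 (0.0818).

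Ccn5 encodes the CCN protein that lacks the C-terminal cysteine knot of its relatives and is known to restrain smooth muscle cell growth. Its probe set (1419015_at) had signals of 29461.8 and 32017.3 with interleukin, 19015.5 and 16860.8 with hydrogen peroxide and 16834.6 and 18501.0 with vehicle. Both interleukin arrays stood above the rest, and the hydrogen peroxide and vehicle arrays overlapped. The log2 change was 0.80 ± 0.09 with interleukin (SE, n = 2 per group, limma adjusted p = 0.000304) and 0.02 with hydrogen peroxide (95% interval -0.18 to 0.23, limma adjusted p = 0.925). The treatments differed by 0.78 (limma adjusted p = 0.000469). For all CCN calls with hydrogen peroxide, the variance model mattered. Without a trend on signal the 5 called probe sets of Ccn1, Ccn3 and Ccn4 had limma adjusted p of 0.0608 to 0.0899. In that fit 0 of the 16 member probe sets passed, against 57 of all 22519. An unadjusted p under 0.05 in limma was held by 9 of the 16, against 4433 of all 22519.

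**Figure D2:**
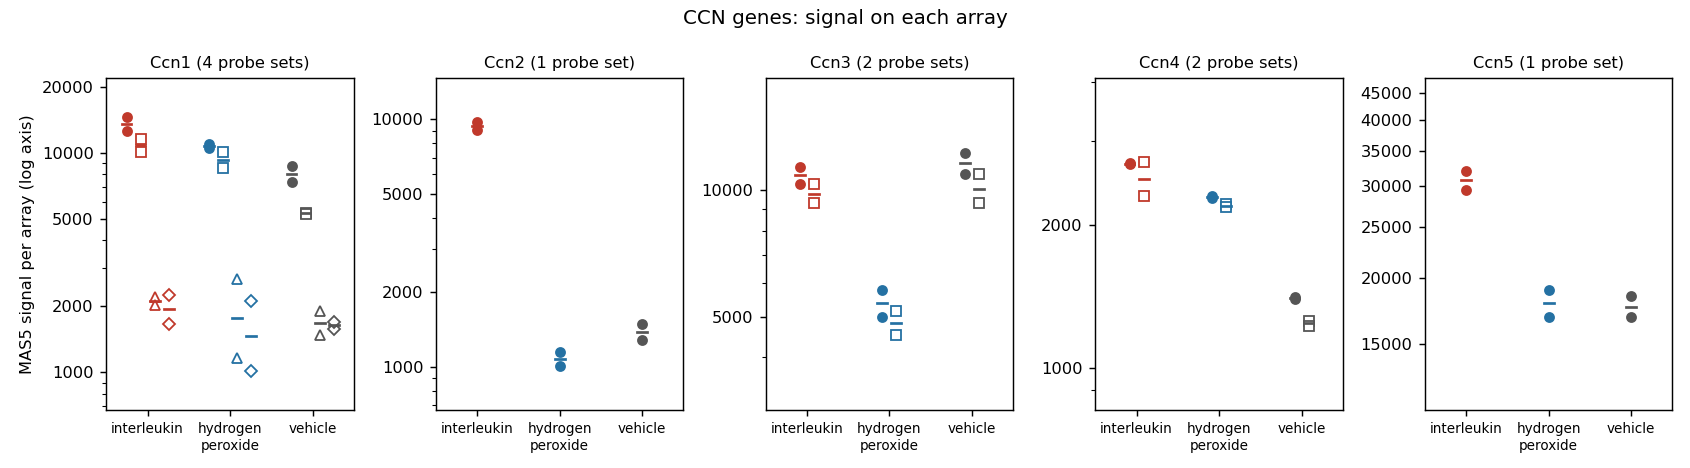
MAS5 signal (log axis, different in each panel) of the CCN genes on each array, with interleukin at the left, hydrogen peroxide in the middle and vehicle at the right of each panel. Each point is 1 array, short bars are geometric means, filled circles are the brightest probe set of the gene and open symbols its other probe sets. Ccn2 and Ccn5 stand apart with interleukin, Ccn3 with hydrogen peroxide, and Ccn4 is higher with both treatments.

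Neither coactivator passed the test by its brightest probe set, but 1 dimmer probe set of each passed with interleukin. Yap1 (1448363_at) had signals of 8528.2 and 8939.5 with interleukin, 7509.1 and 7632.2 with hydrogen peroxide and 7549.3 and 7944.5 with vehicle. Its log2 change was 0.17 with interleukin (95% interval -0.03 to 0.38, limma adjusted p = 0.245) and -0.03 with hydrogen peroxide (-0.24 to 0.17, limma adjusted p = 0.875). The dimmer Yap1 probe set (1416487_a_at) went the other way, at 1572.2 and 1670.5 with interleukin, 1541.0 and 1699.5 with hydrogen peroxide and 2222.0 and 2281.2 with vehicle. Both treatments lay below vehicle there without overlap, at -0.47 ± 0.14 with interleukin (SE, n = 2 per group, limma adjusted p = 0.0383) and -0.48 ± 0.14 with hydrogen peroxide (limma adjusted p = 0.0685). That interleukin call was lost without interleukin array 1 (limma adjusted p = 0.113) or 2 (0.0612), without vehicle array 1 (0.162) or 2 (0.195), with no filter on signal (0.0592) and without a trend on signal (0.0662).

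Wwtr1, which encodes TAZ, showed the same kind of split. Its brightest probe set (1417818_at) had 18013.5 and 17973.3 with interleukin, 17212.3 and 17314.0 with hydrogen peroxide and 17865.0 and 18346.5 with vehicle, changes of -0.01 (95% interval -0.18 to 0.16) and -0.07 (-0.24 to 0.10). On its other probe sets every array of either treatment lay above both vehicle arrays. On 1437155_a_at the signals were 6239.4 and 8660.7 with interleukin, 7286.5 and 6845.6 with hydrogen peroxide and 5420.8 and 4851.0 with vehicle. The changes were 0.52 ± 0.15 (limma adjusted p = 0.0361) and 0.46 ± 0.15 (limma adjusted p = 0.0930), and on 1417817_a_at 0.38 (limma adjusted p = 0.0583) and 0.37 (limma adjusted p = 0.107). The interleukin arrays were far apart on 1437155_a_at, and without interleukin array 2 its change was 0.28 (limma adjusted p = 0.166). The call was also lost without vehicle array 1 (limma adjusted p = 0.0940) or 2 (0.210), with no filter (0.0684), without a trend (0.142) and with the replicate block (0.0524). Fitted without the interleukin arrays, the hydrogen peroxide changes of 1437155_a_at and 1417817_a_at passed (limma adjusted p = 0.0291 and 0.0494). No probe set of Yap1 or Wwtr1 passed between the treatments.

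Amotl2 and Ankrd1 are read here beside Ccn1 because all of them are known YAP and TAZ targets and have promoter sequences in the RefSeq table used (GRCm38.p6). Amotl2 encodes an angiomotin-like protein that binds YAP and TAZ and holds them back, and Ankrd1 encodes an ankyrin repeat protein of muscle that stretch induces in heart. Of the 9 members 5 were matched by symbol, namely Ccn1, Amotl2, Ankrd1, Yap1 and Wwtr1. The 250 bases upstream of the most upstream start of each were searched on both strands for GGAATG, the core bound by TEAD proteins, whose reverse complement is CATTCC. All 5 held at least 1 match, against 12.6% of the 27025 genes with a promoter in the table. The members were chosen by name as genes of this pathway, so the comparison is no test of enrichment. Ccn2, Ccn3, Ccn4 and Ccn5 were not matched and not searched. The stretches of Ccn1 (chr3:145649986-145650235, minus strand), Amotl2 (chr9:102717554-102717803, plus strand) and Ankrd1 (chr19:36119845-36120094, minus strand) are printed 5′ to 3′, with the matches in capitals.
Ccn1: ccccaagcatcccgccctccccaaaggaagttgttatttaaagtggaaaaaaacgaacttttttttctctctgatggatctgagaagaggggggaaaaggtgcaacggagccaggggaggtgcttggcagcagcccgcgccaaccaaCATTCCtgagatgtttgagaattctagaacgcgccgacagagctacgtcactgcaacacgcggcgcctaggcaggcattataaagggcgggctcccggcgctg
Amotl2: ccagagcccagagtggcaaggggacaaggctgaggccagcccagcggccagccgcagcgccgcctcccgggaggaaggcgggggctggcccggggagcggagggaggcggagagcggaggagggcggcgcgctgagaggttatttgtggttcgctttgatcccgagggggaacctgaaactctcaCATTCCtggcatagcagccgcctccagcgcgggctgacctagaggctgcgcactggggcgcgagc
Ankrd1: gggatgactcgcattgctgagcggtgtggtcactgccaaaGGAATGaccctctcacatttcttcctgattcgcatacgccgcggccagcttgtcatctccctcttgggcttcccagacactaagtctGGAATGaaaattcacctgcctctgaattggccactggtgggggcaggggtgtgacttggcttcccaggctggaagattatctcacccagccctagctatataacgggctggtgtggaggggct
The match begins 103 bases upstream of the start in Ccn1 and 65 in Amotl2, and Ankrd1 has a pair, at 210 and 123 bases. Yap1 and Wwtr1 have 1 each, at 141 and 136 bases. In the same windows there was no match to TGANTCA, bound by AP-1, to the NF-kappaB site or to the CArG box of serum response factor, which 6.85%, 0.344% and 1.41% of genes held. These letters describe the windows and do not show binding.

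Of these 5 genes Ccn1 and Amotl2 rose with interleukin by their brightest probe sets, Yap1 and Wwtr1 did not pass by theirs, and Ankrd1 was too dim to test. Amotl2 (1452387_a_at) had signals of 7391.8 and 6222.7 with interleukin, 5799.3 and 6040.8 with hydrogen peroxide and 4571.0 and 4985.2 with vehicle. Both treatments stood above vehicle without overlap, with changes of 0.51 ± 0.12 (SE, n = 2 per group, limma adjusted p = 0.0143) and 0.31 ± 0.12 (limma adjusted p = 0.146). The interleukin call was lost without interleukin array 1 (limma adjusted p = 0.0736), without vehicle array 1 (0.124) or 2 (0.0562) and without a trend on signal (0.0789). Ankrd1 was dim everywhere. Its probe sets gave 82.3 and 64.2 (1420992_at) and 20.4 and 91.9 (1420991_at) with interleukin, 49.2 and 83.1 and 47.9 and 44.3 with hydrogen peroxide, and 110.0 and 53.7 and 42.3 and 5.9 with vehicle. All of these lie under 193.7, so neither was tested, and with no filter on signal neither passed in any comparison (limma adjusted p = 0.601 to 0.986). The groups overlapped on 1420992_at, and no level of Ankrd1 can be ordered at these signals.

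**Figure D3:**
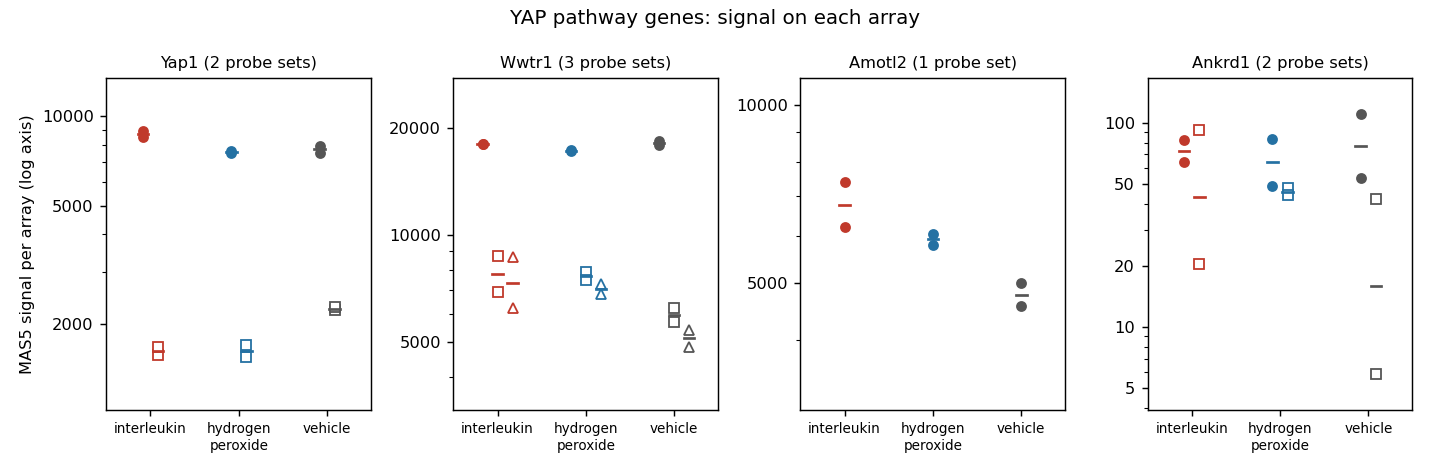
MAS5 signal (log axis, different in each panel) of Yap1, Wwtr1, Amotl2 and Ankrd1 on each array, with interleukin at the left, hydrogen peroxide in the middle and vehicle at the right. Points, bars and fill are as in the plot of the CCN genes. The filled points of Yap1 and Wwtr1 are nearly level, their open points are not, Amotl2 is lowest with vehicle, and both Ankrd1 probe sets are under 193.7 on every array.

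Other genes of the pathway were counted in 4 lists, each gene by its brightest tested probe set. Over all 10892 genes 9.78% were higher and 6.61% lower with interleukin than with vehicle, with a median log2 change of 0.03. With hydrogen peroxide 4.08% were higher and 2.91% lower (median 0.06), and between the treatments 6.3% were higher and 4.06% lower with interleukin (median -0.04).

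Among 16 tested genes of a YAP and TAZ target signature other than the members, 5 were higher and 2 lower with interleukin, with a median of 0.20, and 4 were higher and 1 lower with hydrogen peroxide, with a median of 0.06. Ccdc80, a matrix protein, averaged 15661 ± 1035 with interleukin, 6004.9 ± 692.7 with hydrogen peroxide and 6656.8 ± 26.9 with vehicle (SD, n = 2 each), a rise of 1.23 ± 0.11 with interleukin (log2, SE, limma adjusted p = 4.58e-05). Gadd45a, a stress-induced growth arrest gene that p53 also induces, averaged 14680 ± 1217, 8078.7 ± 103.8 and 7209 ± 641.5, a rise of 1.03 ± 0.10 with interleukin (limma adjusted p = 0.000122). Both were also higher with interleukin than with hydrogen peroxide, by 1.39 and 0.86 (limma adjusted p = 2.58e-05 and 0.000519), and both calls held without any one array. Rbms3, an RNA-binding protein, went the other way with both treatments, falling by 0.74 with interleukin and 0.63 with hydrogen peroxide (limma adjusted p = 0.0029 and 0.0173). All 4 of its tested probe sets were called lower with interleukin. With hydrogen peroxide all 4 had negative changes and 1 was called. That call was lost without either hydrogen peroxide array or either vehicle array, with changes of -0.65 to -0.61 when 1 array was left out. Crim1, a transmembrane protein that binds BMPs, was lower with interleukin than with hydrogen peroxide by 0.67 (limma adjusted p = 0.0174), a call lost without interleukin array 1 (0.0844) or hydrogen peroxide array 2 (0.155). It also fell by 0.61 with interleukin against vehicle (limma adjusted p = 0.0174, lost without interleukin array 1 at 0.102 or vehicle array 1 at 0.157), with 0.06 for hydrogen peroxide (0.856), and its other probe set passed in both comparisons with interleukin. Nuak2, a kinase, rose by 1.07 with hydrogen peroxide (limma adjusted p = 0.0375), and leaving out any array of that comparison gave adjusted p of 0.0691 to 0.262.

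Of 21 tested Hippo kinases and upstream regulators 2 were higher and 2 lower with interleukin (median 0.15), and 3 higher and 0 lower with hydrogen peroxide (median 0.11). None of the 21 passed between the treatments in limma, and 3 had an unadjusted p under 0.05. Fitted with 1 probe set per gene, 3002 of all 10892 genes had such a p between the treatments. Lats2 and Ptpn14 were counted both here and among the target genes, so their calls stand in each count. Lats2 is a kinase that phosphorylates YAP and is itself a YAP target. It averaged 5106.9 ± 381.3 with interleukin, 5144.4 ± 421.8 with hydrogen peroxide and 3501.8 ± 267.3 with vehicle (SD, n = 2 each), rises of 0.54 and 0.56 (limma adjusted p = 0.0119 and 0.0249). Its probe sets disagreed, since 1419679_at fell by 1.30 with interleukin (limma adjusted p = 0.0482) and 3 others did not pass. With hydrogen peroxide none of the other tested Lats2 probe sets passed (limma adjusted p = 0.177 to 0.999). Map4k4, an upstream kinase, rose by 0.48 with interleukin (limma adjusted p = 0.0166), and 2 of its other 3 tested probe sets rose too. Mob1b and Limd1 were lower with interleukin, at -0.46 and -0.48 (limma adjusted p = 0.0329 and 0.0339). The other tested probe set of each did not pass (limma adjusted p = 0.5 and 0.875). Ptpn14, a phosphatase that binds YAP, and Frmd6, a FERM domain protein, rose by 0.66 and 0.59 with hydrogen peroxide (limma adjusted p = 0.0275 and 0.0434). The 2 other tested probe sets of Ptpn14 did not pass (limma adjusted p = 0.634 and 0.221). Leaving out 1 array of a compared group ended each of these calls for at least 2 of the 4 arrays, with adjusted p up to 0.218.

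Of 6 tested TEAD and VGLL genes 2 were higher with interleukin and 1 with hydrogen peroxide, with 0 lower in either (medians 0.31 and 0.33). Vgll3, a TEAD cofactor, averaged 10705 ± 290.7 with interleukin, 11494 ± 765.9 with hydrogen peroxide and 8468.5 ± 219.2 with vehicle (SD, n = 2 each), rises of 0.34 and 0.44 (limma adjusted p = 0.0327 and 0.0229). All 3 of its probe sets passed with interleukin and 2 with hydrogen peroxide. Tead1 rose by 0.48 with interleukin (limma adjusted p = 0.0236), and its other probe set did not pass (0.779). These calls too were lost without 1 array, for Tead1 without interleukin array 2 (limma adjusted p = 0.107) or vehicle array 1 (0.214), and for Vgll3 without any array compared (0.0600 to 0.190 for interleukin, 0.0689 to 0.178 for hydrogen peroxide).

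Of the receptors and co-receptors of CCN proteins 3 of 11 tested were higher and 1 lower with interleukin (median 0.13). With hydrogen peroxide 0 passed in limma and 2 had an unadjusted p under 0.05 (median -0.07). Fitted with 1 probe set per gene, 2961 of all 10892 genes had such a p with hydrogen peroxide. Sdc4, a heparan sulfate proteoglycan, averaged 3234.2 ± 177.1 with interleukin, 1890.3 ± 94.1 with hydrogen peroxide and 2090.2 ± 3.04 with vehicle (SD, n = 2 each). It rose by 0.63 with interleukin (limma adjusted p = 0.00739, lost without vehicle array 1 or 2 at 0.0597 and 0.0613) and was 0.78 higher than with hydrogen peroxide (limma adjusted p = 0.00366). Its dimmer probe set passed in neither, at 0.08 and 0.23 (limma adjusted p = 0.834 and 0.543). Itga6, an integrin subunit through which Ccn1 acts, fell by 0.73 ± 0.13 with interleukin (limma adjusted p = 0.00446), and its dimmer probe set did not pass (0.286). Itgb5, an integrin subunit that pairs with alpha v, rose by 0.50 (limma adjusted p = 0.0133), a call lost without interleukin array 2 (0.0672) or vehicle array 1 (0.124), and its 3 other tested probe sets did not pass, at 0.18, 0.07 and 0.27 (0.269, 0.747 and 0.115). Between the treatments 3 of the 11 were higher and 1 lower with interleukin, that 1 being Notch1 at -1.06 (limma adjusted p = 0.0311), lost without interleukin array 1 (0.141) or hydrogen peroxide array 2 (0.200), and its other tested probe set did not pass (0.101). Lrp1 was higher with interleukin than with hydrogen peroxide by 0.71 (limma adjusted p = 0.0216), and by 0.56 to 0.85 with 1 array left out. That call was lost without either interleukin array or without hydrogen peroxide array 1. The other tested Lrp1 probe set did not pass (0.233). Against vehicle Lrp1 passed with neither interleukin (0.540) nor hydrogen peroxide (0.0767). Without a trend on signal Ccdc80, Gadd45a and Sdc4 were still called in both comparisons with interleukin, and Itga6 against vehicle. The other calls of named genes in these lists had limma adjusted p of 0.0515 to 0.176.

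**Figure D4:**
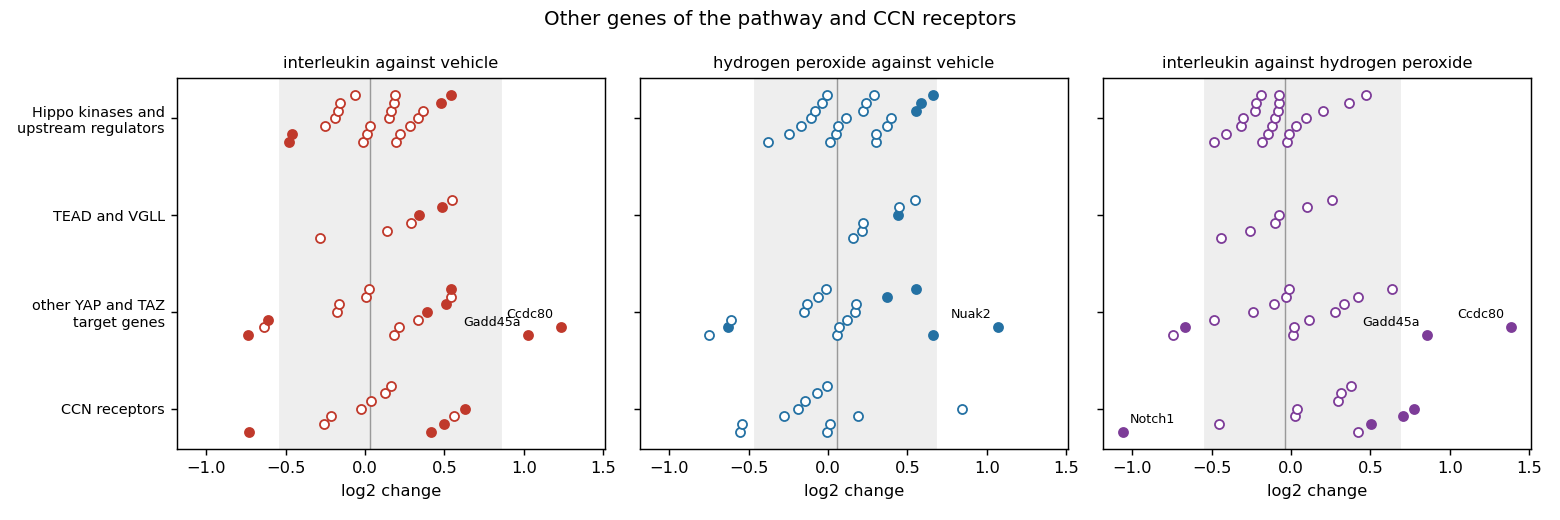
Log2 change of each tested gene in the 3 comparisons, with 1 row per list, 1 point per gene and filled points for adjusted p under 0.05. The grey band holds the middle 90% of all 10892 genes and the line is their median. Called genes beyond the band were Ccdc80 and Gadd45a above and Rbms3, Itga6 and Crim1 below for interleukin against vehicle, Nuak2 above and Rbms3 below for hydrogen peroxide, and Ccdc80, Gadd45a, Sdc4 and Lrp1 above and Crim1 and Notch1 below between the treatments.

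The genes of nearest pattern were found by the root-mean-square difference over the 6 arrays between log2 signals, each taken relative to its own vehicle mean. For Ccn2 they were Serping1, a complement inhibitor (0.162), Il13ra1, a receptor chain for interleukin 13 (0.238), the transcription factor Cebpd (0.242), the membrane protein Gpm6b (0.262) and Dram1 (0.322). Their changes with interleukin were 2.36 to 3.17 and with hydrogen peroxide -0.51 to 0.01. For Ccn1 they were Dennd11 (0.062), Dtnb (0.074), the kinase Fyn (0.079), Znrf1 (0.080) and H2-M3 (0.086), with changes of 0.65 to 0.84 with interleukin and 0.34 to 0.49 with hydrogen peroxide. None of the 10 is a member or stands in the 4 lists.

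**Figure D5:**
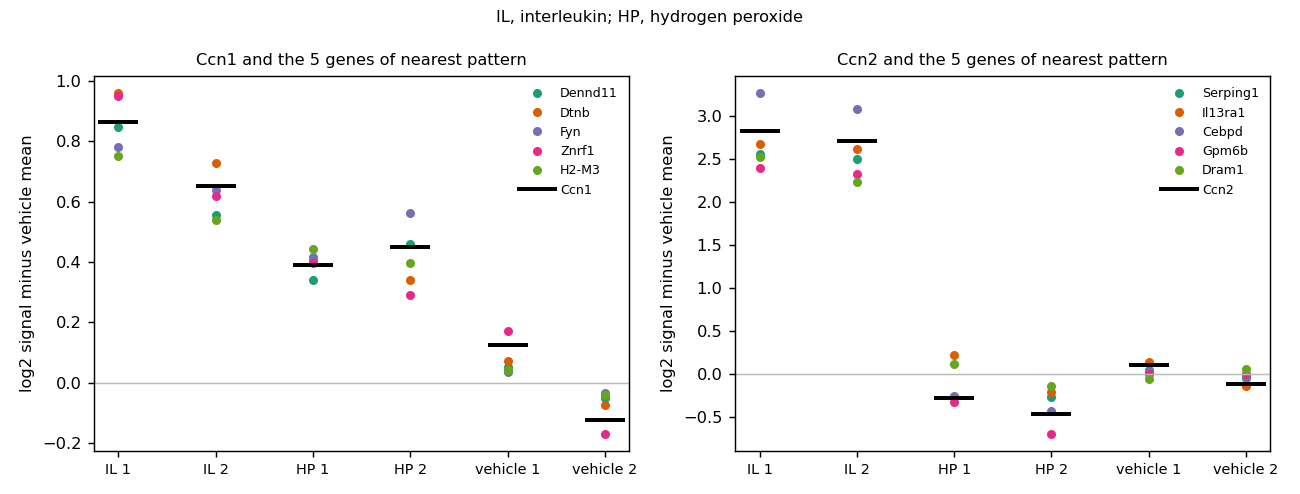
Log2 signal relative to the vehicle mean on each of the 6 arrays for Ccn1 (left) and Ccn2 (right), drawn as black bars, and for the 5 genes nearest to each, drawn as coloured points. Ccn1 lies at 0.87 and 0.65 with interleukin and at 0.39 and 0.45 with hydrogen peroxide, and Ccn2 at 2.82 and 2.71 and at -0.27 and -0.46.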

How the data were processed

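The deposited values are linear intensities, 1 MAS5 signal for each probe set, made by the authors with MAS5 per the submitters' processing notes. The sources used here do not give its version. Total RNA was labelled with biotin per the labels' protocols. Log2 of the signal was taken without a pseudocount. The array has 45101 probe sets, of which 64 are controls and were dropped. Tests covered the 22519 with a mean log2 signal at or above the median, which kept geometric means from 193.7 upward. Detection calls were not used here. Symbols came from the array annotation, updated by gene identifier from a RefSeq table for 34741 of 34945 probe sets with 1 symbol. The 3 comparisons used limma 3.58.1 (R 4.3.3): lmFit with group means on the 6 arrays, eBayes with trend, and p-values adjusted by Benjamini-Hochberg over everything tested. The fit was tested on simulated data. A gene is led by its probe set of highest mean signal. Named genes were the members, up to 4 genes of smallest p per list and comparison, and the 5 nearest patterns. Acta2, Foxd1, Kcnj8 and Cd68, and Crim1 against vehicle, were named after their values were seen. Members and lists were chosen with earlier results of these data known. Alternatives were other scaling, filters, probe set choices and variance models, a pseudocount of 32, the 4 arrays compared alone, the replicate block, and omission of each array. Precision is limited by having 2 arrays in each group.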

Additional observations from a re-analysis of the deposited data

How the results depend on the processing

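The counts of member probe sets called moved as follows. For hydrogen peroxide against vehicle the count was 5 as reported, 0 without a trend on signal, 8 with 4 arrays only and 3 of 8 tested with 1 probe set per gene, and 3 to 8 when 1 array was left out. For interleukin against vehicle it was 9, or 5 of 8 with 1 probe set per gene, and 6 to 9 with 1 array left out. For interleukin against hydrogen peroxide it was 4 and stayed within 3 to 6. Over all probe sets the interleukin count was 3627, 1783 without a trend, 2128 with 1 probe set per gene and 1554 to 3583 with 1 array left out. That for hydrogen peroxide was 1282, 762 with no filter, 57 without a trend and 235 to 1751 with 1 array left out, and that between the treatments 1987, 716 without a trend and 839 to 1919. Over all probe sets the hydrogen peroxide count was also 1705 with 4 arrays only and 1270 with 1 probe set per gene. The count of members for interleukin against vehicle was also 6 without a trend on signal and 7 with no filter, with 0 lower in either. Fewer probe sets, 10892, were tested with 1 per gene, and the cause of the other shifts was not tested.

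Of 1161 refits of single probe sets 1007 kept direction and side of the threshold, 120 lost a call, 17 gained one and 17 changed sign. The differences that changed sign were not called as reported. Ccn5 with hydrogen peroxide was -0.03 after centring on the 75th percentile. With 1 array left out the ranges of those that changed sign were, for hydrogen peroxide, -0.066 to 0.108 (Ccn5), -0.070 to 0.004 (Yap1, 1448363_at), -0.53 to 0.67 (Ccn1, 1442340_x_at) and -0.69 to 0.36 (Ccn1, 1457823_at). For interleukin they were -0.157 to 0.077 (Ccn3, 1426851_a_at) and -0.028 to 0.010 (Wwtr1, 1417818_at). Between the treatments they were -0.34 to 0.86 and -0.12 to 0.94 (these 2 Ccn1 probe sets), -0.069 to 0.073 (Yap1, 1416487_a_at), -0.15 to 0.18 (Wwtr1, 1417817_a_at) and -0.18 to 0.29 (Wwtr1, 1437155_a_at).

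The replicate numbers name the cultures and the labels tie them to no shared batch. Differences between cultures 1 and 2 correlated at -0.129 to 0.107 between groups. With the replicate block the counts of members called were 8, 5 and 4 for interleukin, hydrogen peroxide and the 2 treatments. Over all 22519 probe sets they were 3342, 1170 and 1756 in the same order.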

Other observations

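Ccn6, the remaining gene of the CCN family, was not among the genes examined and has 1 probe set (1444050_at). Its signals were 80.1 and 173.4 with interleukin, 100.3 and 98.3 with hydrogen peroxide and 104.9 and 12.2 with vehicle, all under the lowest mean signal tested, and it was not tested.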
